A study of Mus musculus with 6 samples.

Results

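Carbonic anhydrases and the water channel Aqp1 were followed in mouse choroid ECs at P5 and P30. The 7 genes Car2, Car3, Car4, Car8, Car13, Car14 and Aqp1 were taken by symbol from the 22026 genes of the FPKM tables. These cells form the inner wall of the vessels under the RPE, the pigmented epithelium that supports the photoreceptors. The animals received an antibody against the EC adhesion molecule VE-Cadherin while alive, and the labelled cells were sorted by flow cytometry from digested RPE/choroid, in 3 isolations at P5 and 3 at P30. All animals were of the 129/B6 strain, with no treatment given in the labels, and each isolation pooled 14 eyes of 7 animals, so the spread between isolations is not that between animals. In such bulk samples, fewer cells of a type and less RNA per cell cannot be told apart.

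Carbonic anhydrases interconvert CO2 and bicarbonate, with a zinc ion held by histidines in the active site. Members of the family differ in where they work. Some lie in the cytosol and others are held at the outer face of the cell membrane by a lipid anchor or a membrane-spanning segment, and a few have lost the activity. In the back of the eye, the photoreceptors release much CO2 and lactate, and the choriocapillaris, the fenestrated capillary bed under the RPE, carries them away. Aqp1 forms a water pore in the membrane of red cells, many epithelia and many capillary ECs.

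The coding sequence around the zinc site is shown because it encodes the catalytic centre of the enzymes. The stretches come from the transcripts of the GENCODE annotation of mm9, 5′ to 3′, and the capitals mark the codons aligned with the 3 zinc-binding histidines of Car2 (codons 94, 96 and 119 of its transcript).
Car2: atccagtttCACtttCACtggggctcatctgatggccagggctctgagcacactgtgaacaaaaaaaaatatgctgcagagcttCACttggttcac
Car4: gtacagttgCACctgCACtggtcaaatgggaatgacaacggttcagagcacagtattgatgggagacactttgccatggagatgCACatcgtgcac
Car14: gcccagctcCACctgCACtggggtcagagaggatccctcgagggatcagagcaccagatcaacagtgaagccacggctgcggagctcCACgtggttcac
Car2, Car4 and Car14 carried a histidine codon at all 3 places, and so did Car3 and Car13. Car8 belongs to the carbonic anhydrase related proteins, which are known to lack the activity, and binds the IP3 receptor, a calcium channel of the endoplasmic reticulum. Over the aligned codons, the encoded enzymes shared 56.9% (Car3), 56.9% (Car13), 37.2% (Car14) and 33.3% (Car4) of residues with Car2. At the level of transcripts, no pair of the 7 genes shared an exact run longer than 30 bases (Car2 and Car13), and the other pairs shared at most 14.

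In mm9, Car13 (chromosome 3, 14641727 to 14663002), Car3 (14863538 to 14872351) and Car2 (14886426 to 14900769) lie with Car1 in a stretch of 259.0 kb that holds no other protein-coding gene. Car14 (chromosome 3, 95701691 to 95708614), Car8 (chromosome 4, 8070514 to 8166188), Car4 (chromosome 11, 84771288 to 84779546) and Aqp1 (chromosome 6, 55286426 to 55298549) lie apart from it.

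The FPKM tables gave a level per transcript length, so levels of different genes can be set side by side. Read depth is not known from FPKM, and an entry of 0 does not show that a gene is absent. Differences between ages were tested with limma on log2(FPKM + 1), a scale that understates the change of genes with low FPKM, over the 12481 genes whose mean reached 5 FPKM at either age. Calls required an adjusted p (Benjamini-Hochberg) below 0.01 together with at least a 2-fold difference in mean FPKM + 1. Of the 7 genes, 6 entered the fit and Car3 stayed below the minimum. Car4, Car8, Car14 and Aqp1 were called higher at P30, which makes 4 of 6, against 735 of the 12481 genes tested (5.89%). Car4 passed the minimum only through its P30 mean (18.7 FPKM, against 0.30 at P5), and it is part of this count and of the median below. None of the 6 was called higher at P5 (5.82% of the genes tested). In 5 of the 7 genes (Car2, Car4, Car8, Car14 and Aqp1), every P30 isolation lay above every P5 isolation, as in 22% of the genes tested. Over the 6 tested genes, a median log2 fold change of 2.10 stood beside one of -0.10 for all genes tested. With 3 isolations per age, an exact two-sided permutation test of 1 gene cannot go below p = 0.1, and Car2, Car4, Car8, Car14 and Aqp1 reached that value.

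**Figure D1:**
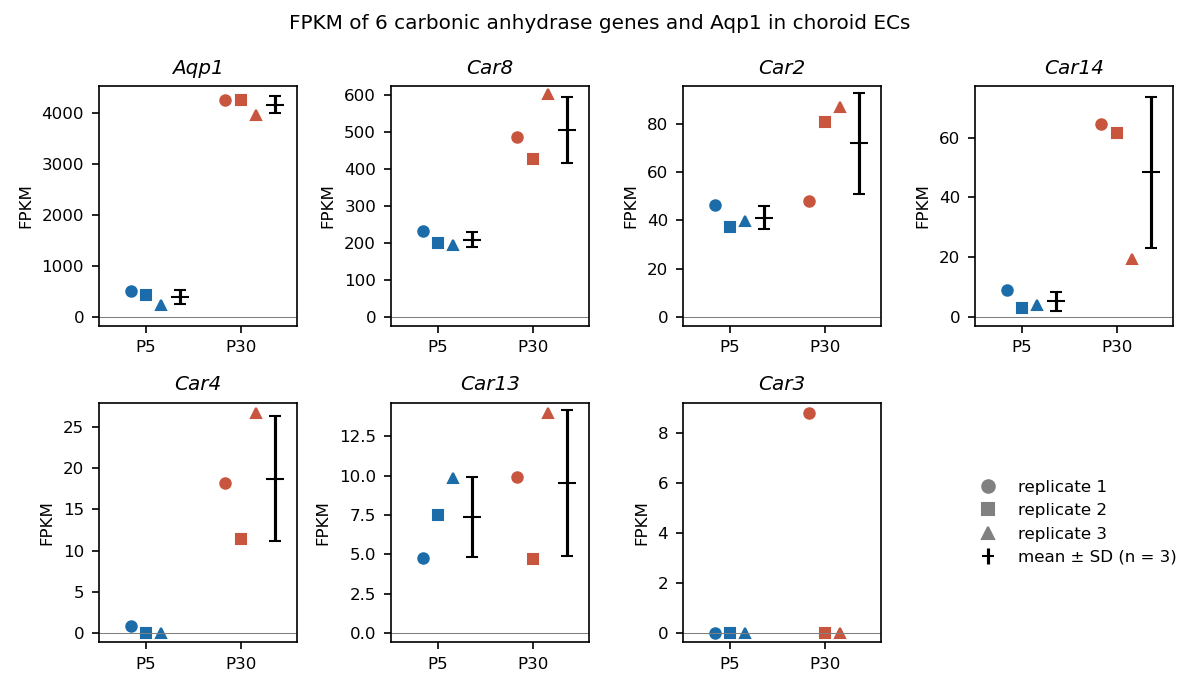
FPKM of each gene (linear y axis from 0, different for each panel) in the 3 P5 and 3 P30 isolations, with symbols for the replicate number and bars for the mean ± SD (n = 3), which are left out for Car3 and for Car4 at P5, where isolations were listed at 0. Aqp1 lay between 3956 and 4246 at P30 and at most at 504 at P5, while the ages overlapped for Car13.

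Aqp1 had the highest level of the 7 genes at both ages and the most even one at P30. Its FPKM was 504, 424 and 235 in P5 replicates 1, 2 and 3. In P30 replicates 1, 2 and 3 it was 4245, 4246 and 3956. The P30 isolations spread by 4.03% (SD over mean) and those at P5 by 35.7%, and the ages were far apart. From 387 ± 138 (SD, n = 3) to 4149 ± 167 (SD, n = 3), the mean rose 10.7-fold (log2 fold change 3.49, SE 0.26, limma adjusted p = 0.00021). By mean FPKM, Aqp1 ranked 627 among the 22026 genes at P5 and 22 at P30. It was called in all 14 alternatives to the analysis, with log2 fold changes between 3.11 and 3.71.

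Red cells also carry Aqp1, and markers of the erythroid lineage varied between isolations. The FPKM of the 8 erythroid markers summed to between 175 and 491 at P5 and to 1385, 1830 and 442 in P30 replicates 1, 2 and 3. Hba-a1, a haemoglobin chain, was the highest of them with a P30 mean of 659, and its reads can be shared with its near-identical copy Hba-a2. Epb4.2, a protein of the red cell membrane, and Car1, the abundant carbonic anhydrase of red cells, were listed at 0 in all 6 isolations. None of the 5 erythroid markers tested was called, where 5.89% of all genes tested were called higher at P30. The isolations at P30 stood in the same order for the erythroid sum and for Aqp1, although replicates 1 and 2 of Aqp1 were nearly equal. This order was that of 20.2% of the genes tested and of the summed smooth muscle markers. In P30 replicate 3, where the erythroid sum lay within the P5 range, Aqp1 was 3956. The part of red cells in the result was not tested.

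Car4, which a lipid (GPI) anchor holds at the outer cell membrane and which is known as the carbonic anhydrase of the choriocapillaris, was close to undetected at P5. Its FPKM was 0.90 in P5 replicate 1 and was listed at 0 in replicates 2 and 3. At P30 it was 18.2, 11.4 and 26.6 in replicates 1, 2 and 3, with a mean of 18.7 ± 7.62 (SD, n = 3). All 3 P30 isolations therefore lay above the P5 isolations, with replicate 3 the highest. The log2 fold change was 3.92 (SE 0.49, limma adjusted p = 0.00119) and its size rests on the 1 added to each value, since it was 6.37 with 0.1 added and 2.12 with 5 added. The call held in all 14 alternatives.

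Car14, anchored by a membrane-spanning segment with its catalytic domain outside the cell, is known from the RPE and from Müller glia of the retina. P5 replicates 1, 2 and 3 had an FPKM of 8.82, 2.86 and 3.78. P30 replicates 1, 2 and 3 had 64.5, 61.5 and 19.3. The P30 isolations were above those at P5, but replicate 3 was well under the other two. The mean rose 9.40-fold, from 5.15 ± 3.21 (SD, n = 3) to 48.4 ± 25.3 (SD, n = 3) (log2 fold change 2.95, SE 0.54, limma adjusted p = 0.00546). This call was lost without P5 replicate 2 (adjusted p = 0.0250), without P5 replicate 3 (0.0290), without P30 replicate 1 (0.0160), without P30 replicate 2 (0.0190) and without a trend in the limma fit (0.0122), with log2 fold changes between 2.65 and 2.95 in these fits. Car14 also shares 521 bases of mm9, 445 of its 1709 exon bases among them, with Aph1a on the opposite strand, and no use of strand in counting is stated. Aph1a, a subunit of the gamma-secretase protease, had an FPKM between 104 and 132 at P5 and between 112 and 153 at P30.

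Markers of the RPE moved with Car14. Summed over the 8 RPE markers, FPKM lay between 91.3 and 178 at P5 and was 3939, 2228 and 554 in P30 replicates 1 to 3, and 6 of the 7 that were tested were called higher at P30. Ttr, a carrier of retinol and thyroid hormone, led them at P30 with a mean of 1052, and Rpe65, the isomerase of the visual cycle, was listed at 0 in P5 replicates 2 and 3. The sum rested mostly on Ttr and Rgr, the latter with a P30 mean of 504. Best1, a chloride channel of the RPE, was below the minimum for the test, with 1.72 ± 0.771 at P5 and 4.54, 4.18 and 4.51 in P30 replicates 1, 2 and 3, and did not have the order of the sum. The 8 photoreceptor markers summed to between 15.8 and 28.6 at P5 and to 440, 299 and 63.8 in P30 replicates 1, 2 and 3, with 3 of 7 tested called higher. Pigment cell markers, led by Dct, a melanin enzyme, at 356, summed to between 102 and 468 at P5 and to 1270, 1135 and 132 at P30, with 0 of 6 called. Of the Müller glia markers, Aqp4 was listed at 0 in all 6 isolations, Apoe led at 2627, and the sum was 6912, 5647 and 4298 at P30 against 4306 to 5961 at P5, with 2 of 5 called higher. That sum rested mostly on Apoe, Vim and Glul, with means of 921, 3711 and 708 at P5 and 2627, 1997 and 776 at P30. Slc1a3 and Kcnj10 stayed below the minimum for the test. In the sum of each of these lists P30 replicate 1 was the highest and replicate 3 the lowest, as for Car14. Among single Müller glia markers, Glul, Slc1a3, Vim and Dkk3 were highest in P30 replicate 2. Apoe, Kcnj10 and Rlbp1, the last also on the RPE list, were highest in replicate 1. The part of the cells of these lists in the result was not tested.

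Car2, the fast cytosolic enzyme found in many tissues, was in the middle of the range. In P5 replicates 1, 2 and 3 its FPKM was 46.5, 37.2 and 39.9. P30 replicates 1, 2 and 3 had 48.1, 81.0 and 87.1. Replicate 1 at P30 thus stood only just above the highest P5 isolation, and replicates 2 and 3 well above it. Means were 41.2 ± 4.77 (SD, n = 3) and 72.0 ± 21.0 (SD, n = 3), and the difference was not called (log2 fold change 0.75, 95% interval 0.21 to 1.30, limma adjusted p = 0.0387). Leaving out P30 replicate 1 brought the log2 fold change to 1.02 and gave a call (limma adjusted p = 0.0032).

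Car13, a further cytosolic enzyme, did not differ beyond the spread between isolations. P5 replicates 1, 2 and 3 had an FPKM of 4.76, 7.53 and 9.87. P30 replicates 1, 2 and 3 had 9.95, 4.70 and 13.96. The lowest and the highest of the 6 values were both from P30, around means of 7.39 ± 2.56 and 9.54 ± 4.64 (SD, n = 3 each). The log2 fold change was 0.27 (95% interval -0.75 to 1.29, limma adjusted p = 0.648), an interval that leaves room for a 2-fold difference, and it was -0.038 without P30 replicate 3.

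Car3, the slow cytosolic enzyme of skeletal muscle and fat, was listed at 0 in 5 isolations and at 8.78 in P30 replicate 1. In a fit with a minimum FPKM of 1 it was not called (limma adjusted p = 0.372). Skeletal muscle markers were highest in the same isolation, with a summed FPKM of 36.9 over 7 genes, against 6.55 and 6.56 in P30 replicates 2 and 3 and 3.12 to 4.47 at P5. Pvalb, a calcium buffer of fast muscle and of neurons, was listed at 20.2 there and at 0 elsewhere, and neither of the 2 muscle markers tested was called. All 6 adipocyte markers, Adipoq among them, were listed at 0 in every isolation.

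Car8 was the most abundant of the 6 carbonic anhydrase genes at both ages. P5 replicates 1, 2 and 3 had an FPKM of 232, 199 and 194. At P30 the values were 485, 426 and 603 in replicates 1, 2 and 3. The ages did not overlap, and the lowest P30 isolation exceeded the highest at P5 by more than the whole P5 range. The mean rose 2.42-fold, from 208 ± 20.4 (SD, n = 3) to 505 ± 90.1 (SD, n = 3) (log2 fold change 1.26, SE 0.15, limma adjusted p = 0.000884). All 14 alternatives kept the call, with log2 fold changes between 1.13 and 1.38. In the order of all genes by mean FPKM, Car8 stood at 1547 at P5 and at 503 at P30.

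Ordered by mean FPKM at P30, the 7 genes ran Aqp1, Car8, Car2, Car14, Car4, Car13 and Car3. Aqp1 and Car8 were each clear of the next gene in every isolation. The ranges of Car2 and Car14, of Car14 and Car4, of Car4 and Car13, and of Car13 and Car3 overlapped. Within single isolations, Car4 lay above Car13 and Car13 above Car3 in each of the 3, whereas Car14 exceeded Car2 in P30 replicate 1 and Car4 exceeded Car14 in P30 replicate 3. At P5 the order was Aqp1, Car8, Car2, Car13, Car14, Car4 and Car3, and the ranges of Car13 and Car14 overlapped, as did those of Car4 and Car3. The lowest P5 isolation of Aqp1, at 235, was only just above the highest of Car8, at 232.

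Over all 16 carbonic anhydrase genes listed, the sum at P5 came to 349 ± 36.7 FPKM and that at P30 to 785 ± 46.7 FPKM (SD, n = 3 each), so that a share of this sum could stay level while the FPKM of a gene grew. Car8 made up 59.9% ± 2.43 of it at P5 and 64.0% ± 7.60 at P30. Car7, a cytosolic enzyme known from brain, held 19.3% ± 4.48 of the sum at P5 and 8.39% ± 1.96 of it at P30, while its own FPKM did not differ beyond the spread (67.5 ± 17.8 and 65.2 ± 11.8, limma adjusted p = 0.924). Car14 took 1.44% ± 0.759 and 6.29% ± 3.44, and Car4 0.0778% and 2.36% ± 0.827. When the 3 carbonic anhydrase related genes Car8, Car10 and Car11 were left out, the other 13 genes summed to 138 ± 17.7 at P5 and 264 ± 38.4 at P30. Car4 and Car14, 2 of the enzymes with an outer catalytic domain, held 7.47% ± 4.17 and 17.6% ± 7.65 of that sum at P30, against 0.199% and 3.67% ± 1.99 at P5. Car12, another enzyme of this kind, held 9.20% ± 6.86 of it at P30 and 2.67% ± 0.50 at P5. Car2 had 30.0% ± 4.24 at P5 and 28.2% ± 11.4 at P30.

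**Figure D2:**
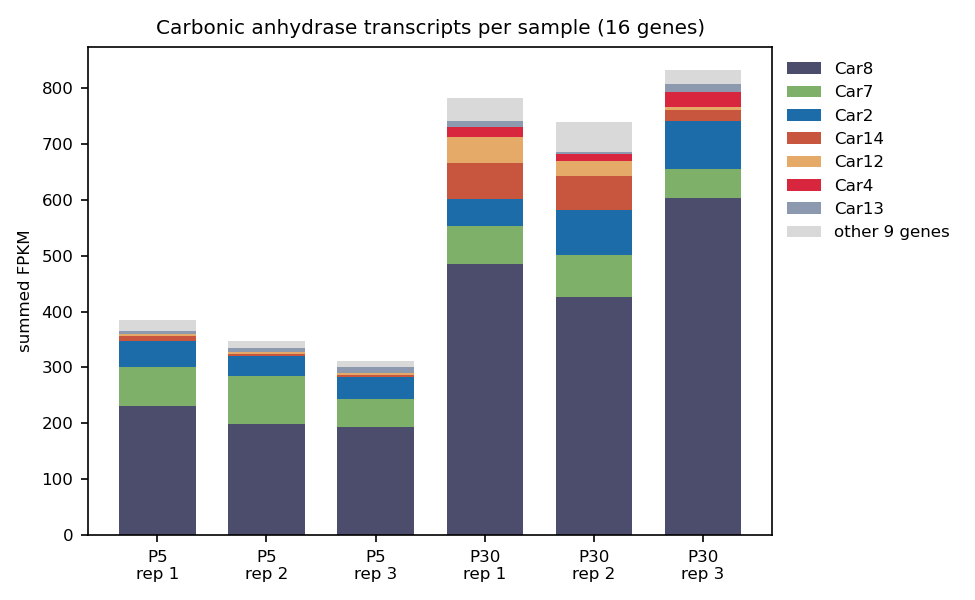
Summed FPKM (y axis, linear from 0) of the 16 carbonic anhydrase genes in each of the 6 isolations, with 1 colour per gene and the 9 genes of low FPKM or of no separate colour in grey. Totals were 312 to 386 at P5 and 739 to 832 at P30, Car8 was the largest share in each isolation, and Car7 lay between 49.1 and 84.5 at both ages.

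None of the 10 other carbonic anhydrases was called, of which 5 were tested, with a median log2 fold change of 1.21. By mean FPKM over the 6 isolations, Car7 and Car12 were the highest of them. Car12, a membrane enzyme of epithelia, had an FPKM of 3.77, 3.32 and 3.81 at P5 and of 45.9, 26.8 and 4.97 in P30 replicates 1, 2 and 3 (log2 fold change 2.10, limma adjusted p = 0.0484). The P30 order was that of Car14 and of 19.2% of the genes tested. It was also that of the RPE, photoreceptor, pigment cell, Müller glia and Schwann cell sums, and the part of those cells was not tested. Car1 and Car5a were listed at 0 throughout. Among the 11 other aquaporins, 7 were listed at 0 in all 6 isolations and only Aqp11, which lies in the endoplasmic reticulum, was tested. For Aqp11, means of 33.7 ± 5.78 at P5 and 49.0 ± 3.69 at P30 (SD, n = 3 each) gave no call (limma adjusted p = 0.0381). Aqp1 accounted for 91.5% ± 1.71 of the summed FPKM of the 12 aquaporins at P5 and 98.7% ± 0.110 at P30.

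The labelled cell type was visible in its markers. All 7 endothelial markers, Emcn, a sialomucin, as the highest with 5523 at P30 and Cdh5 (VE-Cadherin) among them, were above 0 in every isolation, summed to between 13427 and 13668 at P5 and between 15769 and 17138 at P30, and none was called. Cdh5 itself was lower at P30, with 2971 ± 95.4 FPKM at P5 and 1885 ± 52.4 FPKM at P30 (SD, n = 3 each), a log2 fold change of -0.66 (limma adjusted p = 0.0020) under the 2-fold limit for a call, so values per Cdh5 also hold that difference. Relative to 100 FPKM of Cdh5, Aqp1 averaged 13.1 at P5 and 220 at P30, Car8 7.03 and 26.8, Car14 0.176 and 2.55, and Car4 0.0104 and 0.998. Per 100 FPKM of Kdr, Aqp1 averaged 15.7 and 125 and Car8 8.40 and 14.9. The ages of these 4 genes did not overlap per Cdh5, per Pecam1 (CD31) or per Kdr (VEGFR2). Car2 did not overlap per Cdh5 or Pecam1 but did per Kdr, where it averaged 1.66 at P5 and 2.16 at P30, and Car13 overlapped per each of the 3.

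Within P30, the genes did not rank the isolations alike. Car4, Car8 and Car13 were highest in replicate 3 and lowest in replicate 2, an order that 8.38% of the genes tested and 13.9% of those called higher at P30 had. The 8 markers of the choriocapillaris, led by Plvap, the protein of fenestral diaphragms, at 11590, summed to 33259, 27081 and 34254 in P30 replicates 1, 2 and 3 and to between 16057 and 16928 at P5, with 3 of 8 called higher at P30, and had that order too. The order of this sum rested on Plvap. Without it the other 7 markers summed to 21167, 18220 and 20438, highest in replicate 1, as were Vwa1, Rgcc, Emcn and Igfbp3. Kdr, Esm1 and Gpihbp1, like Plvap, were highest in replicate 3 and lowest in replicate 2. Car14 had the order of the RPE list, replicate 1 over 2 over 3, as did 19.2% of the genes tested. Car2 was lowest in P30 replicate 1, where the RPE sum was highest and the sums of pericyte and fibroblast markers were lowest. Pericyte markers, led by Rgs5 at 2675, summed to between 497 and 1765 at P5 and to 1872, 6290 and 3858 at P30 (0 of 7 called), and those of fibroblasts, led by Dcn at 1038, to between 422 and 851 at P5 and to 1443, 3244 and 1805 at P30 (1 of 6 called). None of the 6 tested genes had the order of these 2 lists, replicate 2 over 3 over 1, which 25.9% of the genes tested had. The part of pericytes and fibroblasts in the results was not tested.

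**Figure D3:**
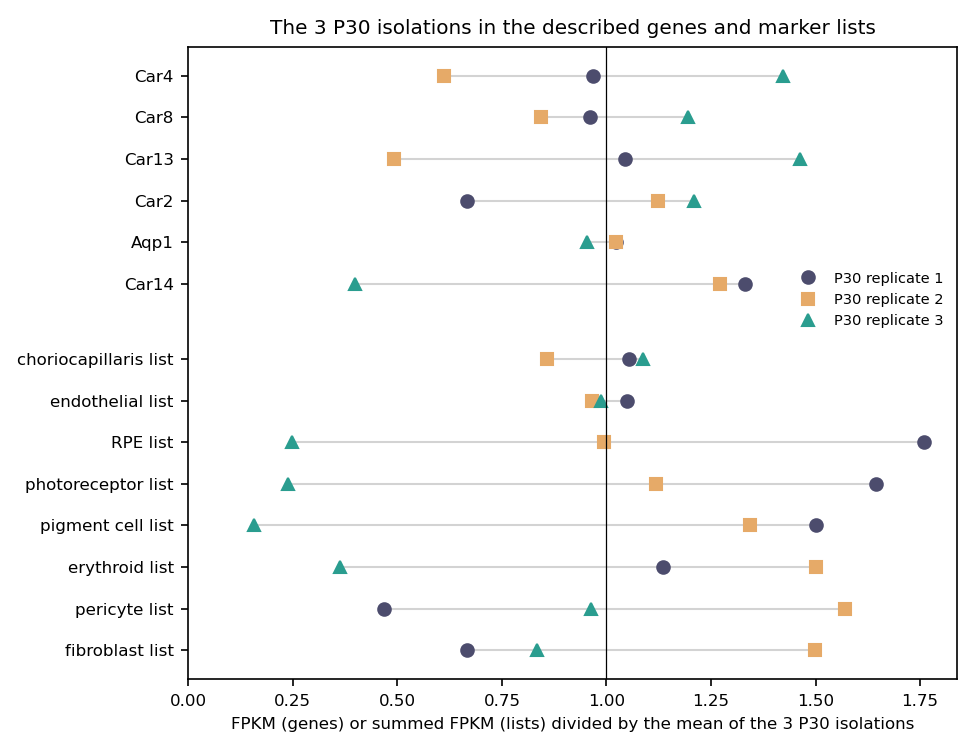
Values of the 3 P30 isolations (symbols) divided by their mean (x axis, linear, no unit) for 6 of the described genes, as FPKM, and for 8 lists of cell type markers, as summed FPKM. Car14 and the RPE, photoreceptor and pigment cell lists were lowest in P30 replicate 3, where Car4, Car8, Car13 and the choriocapillaris list, through Plvap, were highest, and Aqp1 stayed close to 1.

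Smooth muscle markers, led by Acta2 at 251, summed to between 85.6 and 174 at P5 and between 302 and 1065 at P30, with 1 of 4 tested called higher at P30. Schwann cell markers, led by Mbp at 58.4, ranged from 30.5 to 73.4 and from 55.5 to 300.3, with none of 5 called and P30 replicate 1 the highest. Haematopoietic markers, led by Lyz2 at 254, summed to between 557 and 836 at P5 and between 317 and 813 at P30, with 2 of 6 called higher at P5.

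Genes with the most similar profile were found by Pearson's r of log2(FPKM + 1) over the 6 isolations, among the 12481 genes tested. With 6 points that fall into 2 ages, many genes reach a high r, and the values are given as a description. For Aqp1 they were Gcnt2 (r = 0.9997), Gpr146 (0.9986) and Nr1d1 (0.9986), and 871 genes passed 0.95. The profile of Car4 was closest to that of Klf2 (0.9978), a transcription factor that blood flow induces in ECs, with an FPKM of 795, 593 and 624 at P5 and of 3257, 2335 and 3500 at P30. A630072M18Rik (0.9976) and Ocel1 (0.9973) came next, and 564 genes passed 0.95. Car4 itself was listed at 0 in P5 replicates 2 and 3, and a link between Klf2 and Car4 was not tested. Shisa5 (0.9981), Fam174b (0.9979) and Ntf3 (0.9979) were closest to Car8, with 484 genes over 0.95. For Car14 they were Gbp5 (0.9986), Cadm4 (0.9963) and Sgms2 (0.9958), with 376 genes over 0.95. For Car2 they were Rgma (0.9963), Fbxo42 (0.9947) and Olfml3 (0.9938), with 130 genes over 0.95. Car13 had only 2 genes over 0.95, Zfp708 (0.9777) and Emb (0.9695), a chaperone of lactate transporters, with Htatip2 (0.9492) next. Between the described genes, r was 0.997 for Car4 and Car8, 0.973 for Car4 and Aqp1, 0.92 for Car14 and Aqp1, and -0.068 for Car13 and Car14.

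The upstream sequences of the 3 called genes with an entry in the RefSeq promoter table (GRCm38.p6) are shown because these genes were higher at P30 together. Each line holds the 250 bases before the start, on the strand of the gene, and the capitals mark CACCC on either strand, thus also GGGTG, the core that Klf factors bind.
Car4, chr11:84957504-84957753, plus strand: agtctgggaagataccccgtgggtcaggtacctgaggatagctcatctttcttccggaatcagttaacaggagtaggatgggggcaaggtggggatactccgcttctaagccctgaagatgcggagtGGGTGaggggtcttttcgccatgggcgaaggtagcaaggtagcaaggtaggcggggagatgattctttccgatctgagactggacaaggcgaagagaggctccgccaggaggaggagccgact
Car14, chr3:95904686-95904935, minus strand: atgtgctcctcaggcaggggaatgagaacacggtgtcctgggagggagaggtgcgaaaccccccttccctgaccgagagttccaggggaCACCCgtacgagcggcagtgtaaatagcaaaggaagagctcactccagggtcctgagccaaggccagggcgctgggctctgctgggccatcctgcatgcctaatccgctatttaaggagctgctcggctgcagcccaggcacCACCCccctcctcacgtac
Aqp1, chr6:55336049-55336298, plus strand: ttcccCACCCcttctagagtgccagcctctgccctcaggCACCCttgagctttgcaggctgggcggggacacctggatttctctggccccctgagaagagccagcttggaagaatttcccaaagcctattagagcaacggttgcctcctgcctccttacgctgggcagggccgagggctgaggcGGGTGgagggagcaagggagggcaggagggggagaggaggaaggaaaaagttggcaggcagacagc
CACCC was found in 1 place upstream of Car4, 2 of Car14 and 3 of Aqp1, and 52.0% of the 32851 promoters in the table held it in a window of this length. The ETS core CCGGAA, searched on both strands, was found at Car4 (1 stretch that holds it on both) and in 12.0% of all promoters, the GC box GGGCGG at Aqp1 and in 32.7%, and the hypoxia response core ACGTG at Car14 and in 16.6%. TATAAA was in none of the 3 and in 12.4% of all. GC content was 56.4% (Car4), 62.0% (Car14) and 62.0% (Aqp1), with a median of 52.4% over the table. Car2, Car3, Car8 and Car13 had no entry. The start is that of the promoter table, and the bases just after it were found in the GENCODE transcript for Car14 but not for Car4 or Aqp1.

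Genes that move bicarbonate, protons, lactate and sodium work beside the carbonic anhydrases, and most did not pass the test. Of 16 bicarbonate transporters, 9 were tested and 1 was called, higher at P30, against 5.89% of all genes tested. Slc26a7, Slc4a4, Slc4a5 and Slc4a8 passed the minimum only through their P30 means (14.1, 9.07, 36.5 and 5.35 FPKM). Their P5 means were 1.90, 3.29, 2.48 and 3.66, and they are part of the count and of the median below. Slc26a7, an anion exchanger, had an FPKM of 1.82, 0.85 and 3.02 at P5 and of 8.27, 20.2 and 13.7 in P30 replicates 1, 2 and 3, and rose by a log2 fold change of 2.37 (SE 0.46, limma adjusted p = 0.0070). Slc26a7 was highest in P30 replicate 2 and lowest in replicate 1, as were the pericyte and fibroblast sums and 25.9% of the genes tested. The part of those cells was not tested. The list's median log2 fold change was 0.43, and its most abundant member Slc4a2, the anion exchanger AE2, had 85.7 ± 3.45 at P5 and 100.5 ± 15.3 at P30 (SD, n = 3 each).

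Proton-coupled lactate transport held 2 genes called higher at P30 of 6 tested, against 5.89% of all genes tested, with a median log2 fold change of 0.67. Slc16a1 (MCT1) rose from 10.4, 10.3 and 13.4 at P5 to 70.7, 61.3 and 35.2 in P30 replicates 1, 2 and 3 (log2 fold change 2.15, SE 0.28, limma adjusted p = 0.00138). Slc16a8 (MCT3), which in the eye is known from the RPE, rose from 6.71, 4.24 and 8.04 to 117, 72.7 and 27.3 (log2 fold change 3.13, SE 0.50, limma adjusted p = 0.00331). Both were highest in P30 replicate 1 and lowest in replicate 3, an order that 19.2% of the genes tested had. The RPE, photoreceptor, pigment cell, Müller glia and Schwann cell sums had it too. The part of those cells in the result was not tested. Bsg (basigin), the chaperone of Slc16a1 and Slc16a8 and the most abundant gene of the list, was not called, with 715 ± 75.2 FPKM at P5 and 1132 ± 212 FPKM at P30 (SD, n = 3 each).

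Among the sodium proton exchangers and their scaffolds, 7 of 11 were tested, none was called higher at P30 and 2 were called higher at P5. Slc9a9, an endosomal exchanger, had 39.5, 33.9 and 26.2 at P5 and 15.6, 8.07 and 8.62 at P30 (limma log2 fold change -1.58, SE 0.29, adjusted p = 0.00556). Slc9a5 had 31.0 ± 2.16 at P5 and 15.0 ± 1.98 at P30 (limma log2 fold change -1.01, SE 0.18, adjusted p = 0.0046). The list's median log2 fold change was 0.26.

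Atp1b2, a beta subunit of the sodium potassium pump, was called higher at P30. It had 84.5, 47.6 and 23.9 at P5 and 226, 415 and 272 at P30 (limma log2 fold change 2.65, SE 0.43, adjusted p = 0.00355). It was highest in P30 replicate 2 and lowest in replicate 1, an order that the pericyte and fibroblast sums and 25.9% of the genes tested had. The smooth muscle and erythroid sums were also highest in replicate 2. The part of those cells in the result was not tested.

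All 20 genes of the GPI anchor pathway, which makes the lipid that holds Car4, were tested and none was called, at a median log2 fold change of -0.24. Calls were few over all genes tested too, with 5.89% higher at P30 and 5.82% higher at P5. By mean FPKM over the 6 isolations, Pigt and Pigq were the most abundant, with 214 ± 13.4 and 168 ± 2.58 at P5 and 158 ± 32.0 and 139 ± 20.5 at P30 (SD, n = 3 each). Of the ammonia and CO2 channels, Rhag, Rhbg and Rhcg were listed at 0 in all 6 isolations and Rhd reached 0.98 in 1 of them. Of the transport genes named here as called, only Slc16a1 kept its call in all 14 alternatives. The others lost it in between 2 (Atp1b2) and 7 (Slc9a5) of the 14, and none changed direction. Atp1b2 lost the call without P5 replicate 2 and without P30 replicate 2 (log2 fold changes between 2.20 and 3.09 over all alternatives). Leaving out any 1 of the P5 isolations ended the calls of Slc16a8 (2.59 to 3.71), Slc26a7 (1.43 to 2.90), Slc9a9 (-1.85 to -1.29) and Slc9a5 (-1.09 to -0.85). The same held without P30 replicate 2 for Slc16a8, Slc26a7 and Slc9a9, and without P30 replicate 3 for Slc26a7, Slc9a9 and Slc9a5.

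**Figure D4:**
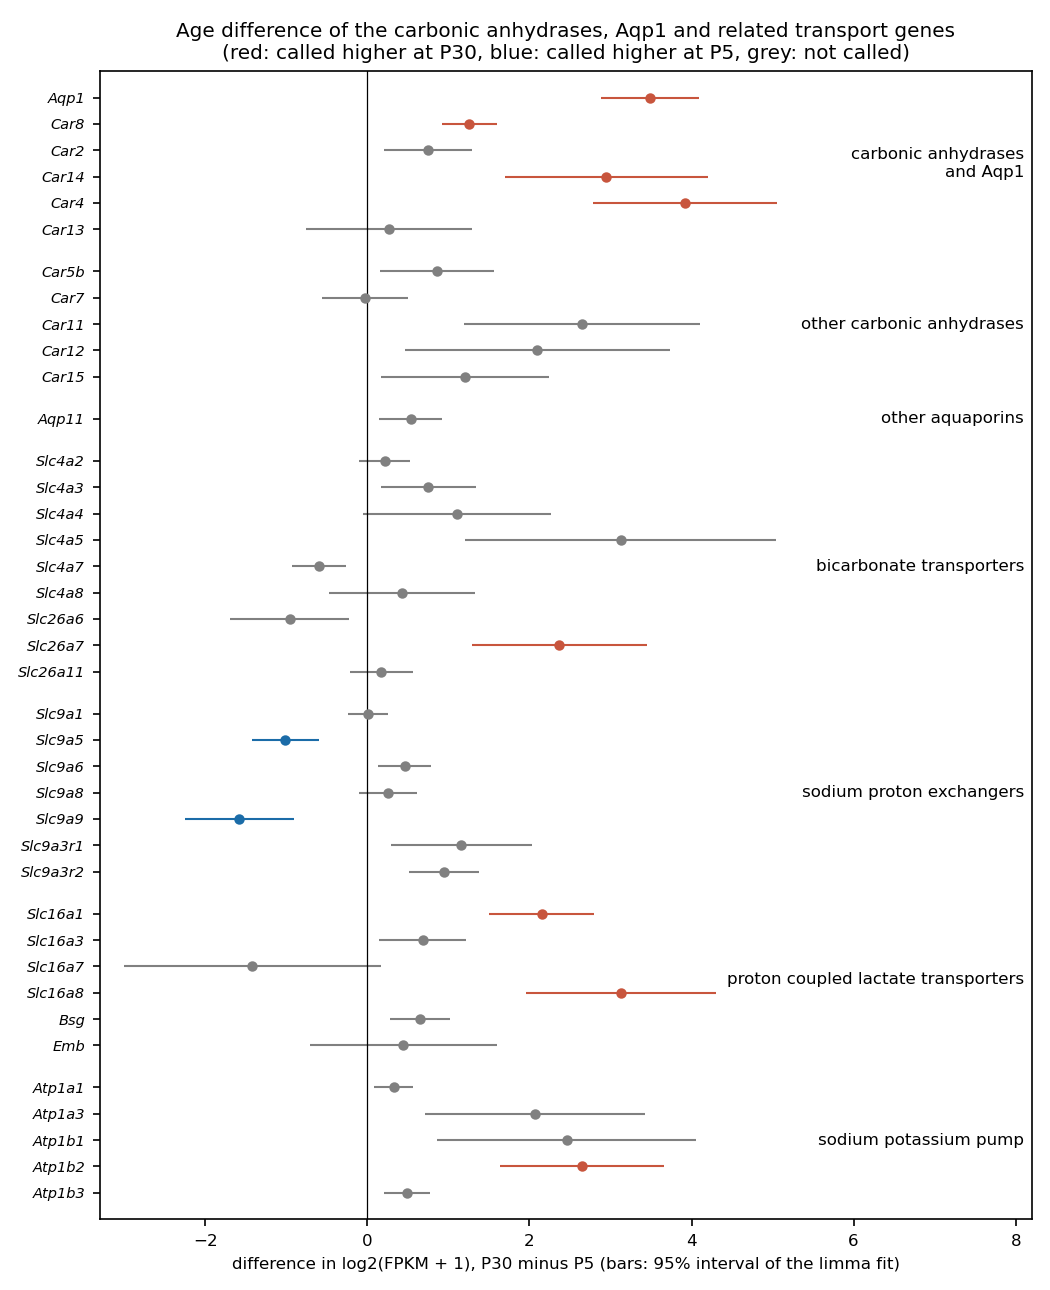
Difference in log2(FPKM + 1), P30 minus P5 (x axis), of tested genes among those described, each with its 95% interval from the limma fit (bars) and its call (colour). Aqp1, Car4 and Car14 had log2 fold changes of 3.49, 3.92 and 2.95, the interval of Car13 spanned 0, and Slc9a5 and Slc9a9 were the only genes of the plot called higher at P5.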

How the data were processed

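RNAseq of sorted choroid ECs was available for 3 isolations at P5 and 3 at P30, assigned from their labels. The libraries were made with the TruSeq RNA kit and run on a HiSeq2000. According to the methods and the submitters' processing notes, the authors used CASAVA 1.8.2 and FastQC, mapped to mm9 with TopHat and obtained the deposited FPKM from CuffLinks, corrected for GC and scaled to the upper quartile. The annotation and the other versions are not given in the sources used here. The scaling sets levels relative to the other genes of a sample. Summed FPKM was 1432700 to 1734600, and 33.4% to 37.3% of genes were listed at 0. Ratios of low FPKM did not pile up at single values (at most 4.58% of them in a bin), so reads could not be recovered, depth is unknown, and no counting interval is given. No pair of samples was identical. The authors' DESeq2 test used read counts, which were not used here.

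log2(FPKM + 1) was fitted with limma 3.58.1 (trend, no block) in R 4.3.3, and the script was tested on simulated data. Python 3.11.15 (scipy 1.17.1, pandas 2.3.3, numpy 2.4.6) served for the other steps. Alternatives were an added value of 0.1 or 5, a minimum FPKM of 1 or none, quantile normalization, no trend, the fold taken from the limma coefficient, a replicate block and each isolation left out. The described genes and all lists were chosen with earlier results of these data known. Beyond the 7 genes, the text names up to 4 called genes per transport list and direction (or, with no call, the 2 most abundant), the 3 genes closest to each tested gene by r, and the most abundant gene of each marker list. Some results this rule covers are not reported here. Also named, after their values were seen, were genes listed at 0, genes that overlap or normalize another, Slc4a2, Bsg, Rpe65, Rgr and Best1. So were the choriocapillaris markers beside Plvap and the Müller glia markers beside Apoe. The most abundant were taken by mean FPKM over the 6 isolations (marker lists: over P30). Rgcc was matched to its row by a RefSeq synonym. Positions and transcripts are from GENCODE vM1.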

Additional observations from a re-analysis of the deposited data

How the results depend on the processing

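With each isolation left out in turn, between 396 and 849 genes were called higher at P30 and between 291 and 754 higher at P5. The count higher at P30 was 404 without P5 replicate 2 and 396 without P5 replicate 3, and the count higher at P5 was 427, 291 and 297 without P5 replicates 1, 2 and 3. In these leave-one-out fits the log2 fold change was between 0.59 and 1.02 for Car2, between -0.038 and 0.66 for Car13, where it reversed without P30 replicate 3, and between 2.65 and 3.50 for Car14. Without a trend, Car14 kept its log2 fold change of 2.95 and lost the call (limma adjusted p = 0.0122). Between 3 and 4 of the described genes were called higher at P30, and 0 higher at P5, in each of the 14 alternatives. Aqp1, Car4 and Car8 were called in all of them. The causes of these changes were not tested.

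With the replicate number as a block, 585 genes were called higher at P30 and 524 higher at P5, and the described genes kept their calls, while Slc26a7 and Slc9a5 lost theirs. Slc9a5 also lost its call with 5 added to each value and with quantile normalization. Deviations of same-numbered samples from their age means did not go together (r = -0.0618, -0.0905 and -0.0305 for replicates 1, 2 and 3), so the numbers were not taken as pairs. Depth is unknown, so low levels such as those of Car3, Car13 and of Car4 at P5 carry a counting error that cannot be given. Where an isolation was left out, 2 samples stood for 1 age. Levels are relative to the upper quartile of each sample, and pooled animals hide the spread between animals.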
